A study of Mus musculus with 4 samples.

Results

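The MYC, MAX and MXD network is a set of transcription factors that pair with each other through a basic helix-loop-helix leucine zipper. The rows of the deposited table carrying 1 of 10 gene symbols were taken: Myc, Mycn, Max, Mxd1, Mxd3, Mxd4, Mxi1, Mnt, Mga and Mlx. Of these, 9 had a row among 28141 genes and all 9 entered the test, while Mxd3 is not analysed here. The measurements are RNA-seq of polyadenylated RNA from 4 libraries of leukaemia cells, which the labels call LSCs, from C57BL/6 mouse bone marrow. There were 2 WT libraries and 2 libraries with a conditional knockout of Ybx1 (YBX1cKO, here Ybx1 cKO). The series title names chronic myeloid leukaemia. The driver of the leukaemia, the Cre line, the age of the mice and any pooling of animals are not stated in the sources used here.

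MYC and its relative MYCN activate genes for growth, ribosome production, nucleotide synthesis and cell division, and they bind DNA only as dimers with MAX. The MXD proteins (MXD1, MXI1, MXD3 and MXD4) and MNT also pair with MAX, bind the same E-box sequence and recruit SIN3 and histone deacetylases, which lowers transcription. MXD genes are known for rising as blood progenitors stop dividing and mature, while Myc falls. MGA pairs with MAX inside a Polycomb complex, and MLX joins the network to the glucose sensors MondoA and ChREBP.

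Deposited values were multiplied by 0.693 to give log2 levels, and differences are cKO minus WT. The factor was inferred from the noise between replicates, where a second check would make the log2 fold changes somewhat smaller. If the deposited values were plain log2, the log2 fold changes would be 1.44 times as large with the same p-values. The table held no counts, so depth is unknown. Back-transformed levels summed to 11074317 to 11157952 in WT against 12104617 to 12134026 in cKO. If these sums were set equal, each log2 fold change would be 0.12 lower, and Myc, for example, would be at -0.98. Adjusted p-values are from limma over 15527 genes, adjusted by Benjamini-Hochberg, with the threshold at 0.05, below which a gene is said to have risen or fallen. The labels do not say whether replicates were separate animals, and p-values cover only the spread among these libraries, which may be technical. In this bulk RNA, fewer cells of a type and less RNA per cell cannot be told apart.

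Ybx1, the deleted gene, stood at 9.31 and 9.41 in the WT libraries against 8.19 and 8.13 in the cKO libraries, a 2.29-fold fall. Of all tested genes 19.5% rose and 17.8% fell. Of 7 general leukocyte genes 5 rose and 0 fell (5 and 2 with the library sums set equal), among the rises the myeloid integrin gene Itgam. Of 9 stem and progenitor genes 4 were tested, of which 3 fell and 0 rose, with sums per 1000000 of 485.8 and 500.5 in WT against 307.1 and 316.3 in cKO. Kit, Cd34, Flt3, Hlf and Meis1 are not analysed here, so the stem cell label could not be checked on them.

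Myc, the main activator of the network, was lower in both cKO libraries. Its log2 level was 12.95 in both WT libraries, against 12.07 and 12.11 in the cKO libraries. The groups were far apart compared with the gap between replicates. The fall was 1.81-fold (log2 fold change -0.86, SE 0.03, limma adjusted p = 2.8e-17). Myc lies on chromosome 15 from 61985391 to 61990374 on the plus strand (GRCm38). Per length it was among the more abundant transcripts, since 98.5% of the tested genes with a known exon length had a lower level per kb of exon.

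Mycn, the relative of Myc best known from the nervous system and from fetal and stem cells, moved the other way. It stood at 10.70 in both WT libraries and at 11.00 and 10.97 in the cKO libraries. The cKO replicates lay 0.024 apart, and the groups did not overlap. The rise was 1.22-fold (log2 fold change 0.28, SE 0.04, limma adjusted p = 8.0e-06). Mycn lies on chromosome 12 from 12936093 to 12941914 on the minus strand. With the sums of the libraries set equal its rise was 0.16 on the log2 scale and still passed (limma adjusted p = 3.6e-03). With 1 prior variance shared by all levels, it did not (limma adjusted p = 0.075).

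**Figure D1:**
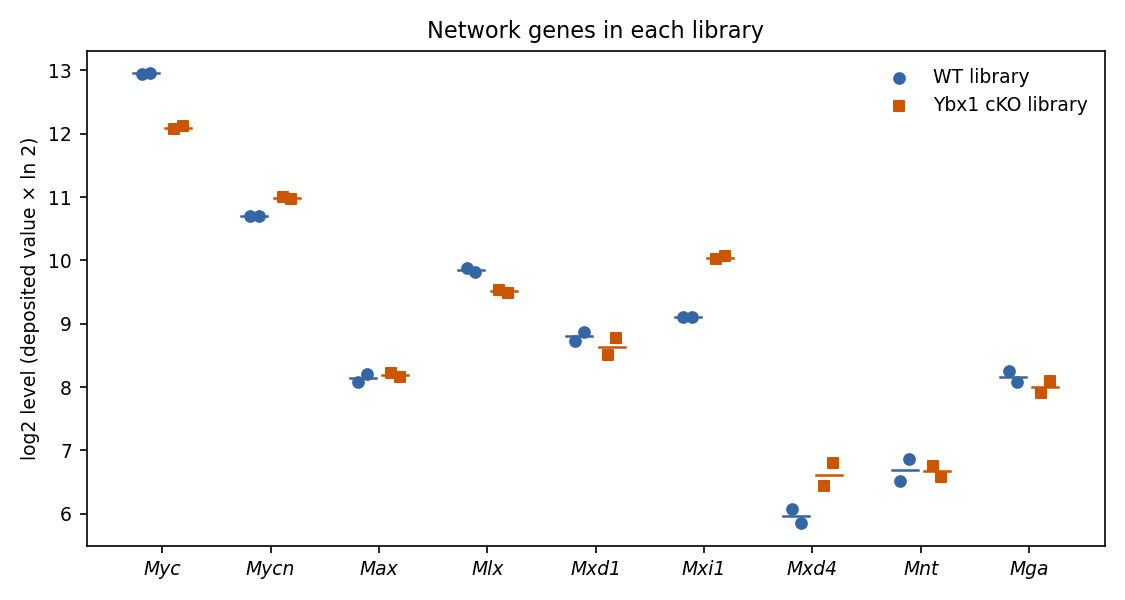
Log2 levels of the 9 network genes, with a point for each library and a short line at each group mean; circles are WT and squares Ybx1 cKO. Myc and Mlx were lower and Mycn, Mxi1 and Mxd4 higher in both cKO libraries, with no overlap with WT, while the groups of Max, Mxd1, Mnt and Mga overlapped.

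Max, the shared partner with which MYC, MXD, MNT and MGA proteins pair, did not pass the test. Its log2 levels were 8.09 and 8.20 in WT against 8.22 and 8.16 in cKO, so the groups overlapped (log2 fold change 0.05, SE 0.10, limma adjusted p = 0.75). Max lies on chromosome 12 from 76937269 to 76962201. Mlx, the partner of the MondoA and ChREBP sensors, fell. It stood at 9.89 and 9.82 in WT against 9.53 and 9.49 in cKO, with both cKO libraries below both WT libraries. It fell 1.27-fold (log2 fold change -0.34, SE 0.06, limma adjusted p = 6.1e-05), which did not pass with 1 prior variance shared by all levels (limma adjusted p = 0.065). Mlx lies on chromosome 11 from 101087277 to 101092207, and 385 of its 1999 exon bases are shared with Psmc3ip on the opposite strand. Psmc3ip, a recombination factor gene, fell 2.28-fold, and because strand use in counting was not given, reads from the shared stretch may not be told apart.

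Among the repressors, Mxi1 changed most. Its log2 level was 9.11 and 9.10 in the WT libraries against 10.02 and 10.06 in the cKO libraries. Replicates were within 0.05 of each other and the groups were well apart. The rise was 1.91-fold (log2 fold change 0.94, SE 0.06, limma adjusted p = 7.8e-12), larger than that of 96.3% of the tested genes. With no filter on low values the limma adjusted p was 9.2e-04, and with 1 prior variance shared by all levels 0.032. Mxi1 lies on chromosome 19 from 53310518 to 53375810 on the plus strand. It encodes the MXD2 protein and has several start sites, and the gene-level values do not separate its isoforms.

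Mxd4, a repressor gene with low levels here, also rose. It stood at 6.08 and 5.85 in WT against 6.44 and 6.80 in cKO, so both cKO libraries were higher but the replicates were further apart than for Mxi1. The rise was 1.57-fold (log2 fold change 0.65, SE 0.19, limma adjusted p = 9.0e-03). This call did not hold without WT replicate 2 (limma adjusted p = 0.082), without Ybx1 cKO replicate 2 (limma adjusted p = 0.087), with no filter on low values (limma adjusted p = 0.092) or with 1 prior variance shared by all levels (limma adjusted p = 0.10). Mxd4 lies on chromosome 5 from 34173883 to 34187720 and shares 514 exon bases with an antisense gene.

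Mxd1, the MXD gene known from mature myeloid cells, did not pass. Its levels were 8.73 and 8.88 in WT against 8.50 and 8.78 in cKO, and the groups overlapped (log2 fold change -0.16, SE 0.09, limma adjusted p = 0.19). It passed as lower without Ybx1 cKO replicate 2 (log2 fold change -0.30, limma adjusted p = 7.0e-03) and with the library sums set equal (log2 fold change -0.29, limma adjusted p = 0.012). Mnt, a broadly expressed repressor, had levels of 6.51 and 6.86 in WT against 6.76 and 6.58 in cKO, with a difference near 0 (log2 fold change -0.02, SE 0.17, limma adjusted p = 0.95). Between themselves, the WT replicates of Mnt differed by more than the groups did.

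Mga, a very large protein that carries a T-box domain beside its helix-loop-helix, stood at 8.25 and 8.08 in WT against 7.90 and 8.10 in cKO. The groups overlapped (log2 fold change -0.16, SE 0.11, limma adjusted p = 0.26), and with the library sums set equal it passed as lower (log2 fold change -0.29, limma adjusted p = 0.030). Mxd1 lies on chromosome 6 from 86647042 to 86669161, Mnt on chromosome 11 from 74830920 to 74845725, and Mga on chromosome 2 from 119897228 to 119969581.

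Counted together, 5 of the 9 network genes passed the test, Mycn, Mxi1 and Mxd4 as higher and Myc and Mlx as lower. Of all tested genes 37.4% passed, 19.5% as higher and 17.8% as lower, so the count alone does not set the network apart. Both cKO libraries lay on 1 side of both WT libraries for the same 5 genes, as they did for 65.1% of all tested genes. With the library sums set equal, 3 network genes were higher and 4 lower, with Mxd1 and Mga added. With 1 prior variance shared by all levels only 2 passed, Myc and Mxi1. The median log2 fold change of the 9 was -0.02, beside 0.00 over all tested genes.

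**Figure D2:**
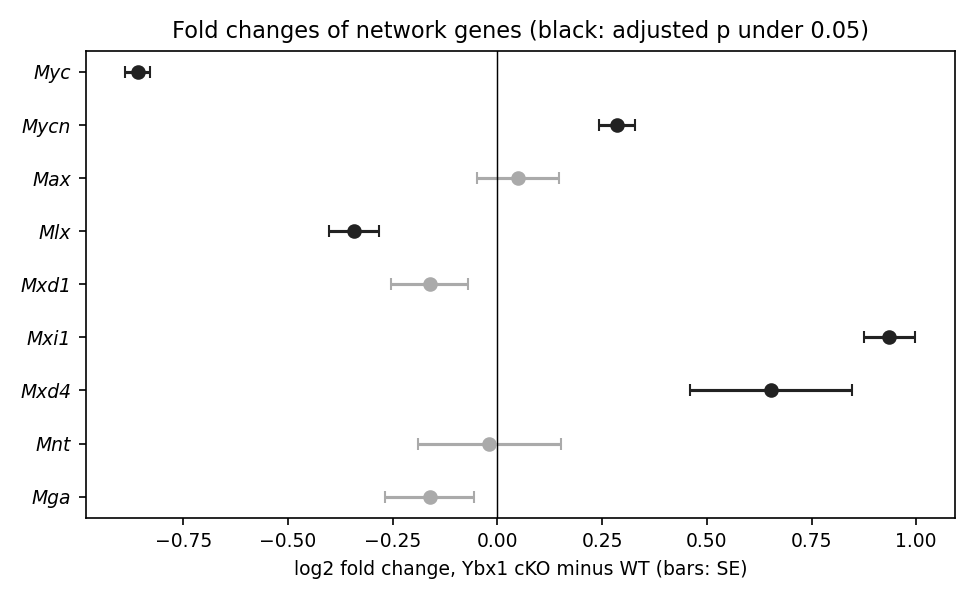
Log2 fold change of each network gene, Ybx1 cKO minus WT, with bars of 1 SE from the moderated variance; black points passed an adjusted p of 0.05 in limma and grey points did not. Myc at -0.86 and Mxi1 at 0.94 lie at the ends, and Max and Mnt lie within 1 SE of 0.

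Levels of different genes were compared per length. Each is the back-transformed level per 1000000 of the library sum and per kb of merged exons in GENCODE M21. Division by the library sum is not part of the fold changes above. With it, the log2 fold change of Myc was -0.98 instead of -0.86 and that of Mycn 0.16 instead of 0.28. In WT, Myc stood at 262.2 ± 2.1 (SD, n = 2), followed by Mycn at 45.5 ± 0.15 (SD, n = 2) and Mlx at 41.6 ± 1.2 (SD, n = 2). Mxi1 at 7.26 ± 0.01 (SD, n = 2) and Max at 7.08 ± 0.43 (SD, n = 2) could not be ordered, because their WT libraries overlapped. Mxd1 came next at 5.68 ± 0.45 (SD, n = 2), and Mnt at 2.02, Mga at 1.68 and Mxd4 at 0.66 were lowest. Mnt and Mga overlapped as well. The activators were thus the most abundant and the MXD genes far below them.

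In cKO the order of the means was the same, but the distances changed. Myc stood at 132.6 ± 2.7 (SD, n = 2), Mycn at 50.8 ± 0.69 (SD, n = 2), Mlx at 30.1 ± 0.63 (SD, n = 2) and Mxi1 at 12.7 ± 0.23 (SD, n = 2). Mxi1 now lay above Max at 6.71 ± 0.20 (SD, n = 2) with no overlap between libraries. Of the level per kb summed over the 9 genes, Myc made up 70.1% and 70.3% in the WT libraries against 54.4% and 55.3% in the cKO libraries. The share of Mycn was 12.2% and 12.1% in WT and 21.3% and 20.7% in cKO. The 5 repressor genes Mxd1, Mxd4, Mxi1, Mnt and Mga together held 4.53% and 4.73% in WT and 8.69% and 9.15% in cKO. Their own sum changed less, from 16.9 and 17.7 in WT to 20.9 and 22.3 in cKO. The sum over all 9 fell with Myc, from 372.2 and 375.2 to 240.2 and 243.4, which raises every other share. Even Max, which did not rise, went from 1.82% and 1.97% to 2.85% and 2.70%. The merged exon length counts every annotated exon, so levels of genes with long alternative exons are understated.

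**Figure D3:**
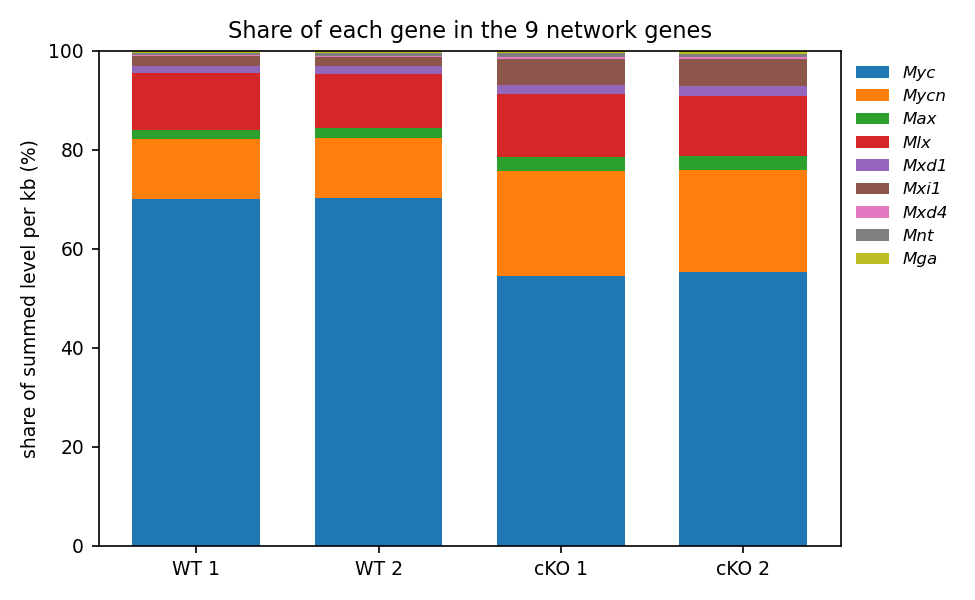
Stacked bars of the share of each network gene in the level per kb summed over the 9 genes, for each library. Myc takes 70.1% and 70.3% in the WT libraries against 54.4% and 55.3% in the cKO libraries, and the bands of Mycn and Mxi1 are wider in cKO. The summed level itself was lower in cKO, at 240.2 and 243.4 against 372.2 and 375.2 in WT.

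Differences within a library do not depend on how the libraries were scaled to each other. Myc minus Mxi1 was 3.84 and 3.85 on the log2 scale in the WT libraries against 2.05 in both cKO libraries. The level of Myc relative to Mxi1 was thus 3.47-fold lower in cKO. Myc minus Max was 4.86 and 4.75 in WT against 3.85 and 3.95 in cKO. Myc minus Mxd4 was 6.87 and 7.10 in WT against 5.63 and 5.32 in cKO. Myc lost ground to each of these partners and rivals, and likewise to Mxd1 (4.22 and 4.08 in WT, 3.57 and 3.34 in cKO) and to Mnt (6.43 and 6.09 in WT, 5.31 and 5.53 in cKO). In all 5 differences both cKO libraries lay below both WT libraries. An exact two-sided permutation test gives p = 0.33 for each, which is the smallest value that 2 libraries against 2 can give, so it could not pass. All 5 share the values of Myc and are not independent.

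The network acts through the E-box, whose preferred form is CACGTG. In RefSeq promoters (GRCm38.p6), from 250 bases before to 50 after each start, this hexamer, which reads the same on both strands, was present in 7.15% of 32851 promoters. Counted by gene, 11.2% of the 10601 tested genes with an entry held it in a promoter. Of the 10 network genes 9 had an entry, all but Myc, and 4 held the hexamer. They are shown 5′ to 3′ on the strand of the gene, with the hexamer in capitals, to show where the network's own genes carry its site.
Max: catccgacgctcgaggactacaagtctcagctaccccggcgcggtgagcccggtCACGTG
Mlx: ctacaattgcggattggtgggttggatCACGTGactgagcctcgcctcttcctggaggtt
Mnt: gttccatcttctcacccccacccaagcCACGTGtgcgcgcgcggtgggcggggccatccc
Mxd4: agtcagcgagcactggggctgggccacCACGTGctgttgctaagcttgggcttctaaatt
The hexamer began 3 bases before the start in Max (chr12:76962246-76962305, minus strand), 40 before it in Mlx (chr11:101087223-101087282, plus strand), 123 in Mnt (chr11:74830774-74830833, plus strand) and 219 in Mxd4 (chr5:34187897-34187956, minus strand). Of these 4 genes, Mxd4 rose, Mlx fell, and Max and Mnt did not pass, so genes with the hexamer went both ways. Mxi1 and Mycn, which rose, did not hold it in this window.

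Genes known to be induced by MYC fell for the most part. Of 54 tested members of this list 39 fell and 4 rose, where 17.8% and 19.5% of all tested genes did, and the median log2 fold change was -0.50 beside 0.00 over all tested genes. Npm1, a nucleolar chaperone, fell 1.74-fold (log2 fold change -0.80, SE 0.03, limma adjusted p = 4.1e-17), with log2 levels of 13.25 and 13.20 in WT against 12.42 and 12.45 in cKO. Ptma, which encodes prothymosin alpha, stood at 11.79 and 11.73 in WT against 10.92 and 10.85 in cKO, a fall of 0.87 on the log2 scale (SE 0.04). Nop56, a core protein of box C/D snoRNPs, was at 12.45 and 12.42 in WT against 11.69 and 11.70 in cKO, and Cdk4, a G1 cyclin-dependent kinase, at 11.84 and 11.79 and at 11.03 and 11.05. In each of these genes the cKO libraries lay below the WT libraries by many times the gap between replicates.

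Enzymes of nucleotide and one-carbon metabolism were among the falls. The log2 fold change was -0.98 (SE 0.10) for Mthfd1l, -0.84 (SE 0.05) for Impdh2, -0.80 (SE 0.05) for Mthfd1, -0.64 (SE 0.04) for Gart and -0.63 (SE 0.14) for Cad, the pyrimidine synthesis enzyme; these 5 were chosen after their values were seen. The 4 that rose were E2f1 (log2 fold change 0.47), the amino acid transporter subunit Slc3a2 (0.16), the pyruvate kinase Pkm (0.14) and the cyclin Ccnd2 (0.06). The rises of Slc3a2, Pkm and Ccnd2 were small, and none of the 4 passed with the library sums set equal, where 46 members fell and 0 rose. Under quantile normalization 44 members fell and 1 rose, E2f1. E2f1 did not pass without WT replicate 2 (limma adjusted p = 0.11). Ccnd2 did not pass without WT replicate 1, WT replicate 2 or Ybx1 cKO replicate 1 (limma adjusted p = 0.12, 0.096 and 0.091). With 1 prior variance shared by all levels, 26 members fell and 0 rose. Ccnd2 and Pkm fell under quantile normalization, at -0.23 each.

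Of the induced genes 45 had a promoter entry and 11 (24.4%) held CACGTG, beside 11.2% of all tested genes with an entry. With the hexamer 8 of 11 fell, and without it 25 of 34 fell, so falls were about as frequent in both groups. Over all tested genes with an entry, 23.8% of 1188 with the hexamer and 20.0% of 9413 without it fell. The 3 falling genes with the hexamer and the smallest p-values are shown because their promoters carry the sequence in different numbers, with the hexamers in capitals.
Cdk4: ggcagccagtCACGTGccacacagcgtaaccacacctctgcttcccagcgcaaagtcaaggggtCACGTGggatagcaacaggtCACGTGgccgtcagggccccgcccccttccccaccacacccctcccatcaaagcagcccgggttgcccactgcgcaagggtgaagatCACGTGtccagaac
Ldha: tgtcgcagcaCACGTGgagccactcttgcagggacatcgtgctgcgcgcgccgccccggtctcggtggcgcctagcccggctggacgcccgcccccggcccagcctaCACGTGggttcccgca
Impdh2: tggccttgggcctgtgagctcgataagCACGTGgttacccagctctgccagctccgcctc
Cdk4 (chr10:127063353-127063537, plus strand) held 4 copies, beginning 172, 118, 98 and 11 bases before the start, Ldha (chr7:46845649-46845771, plus strand) held 2 and Impdh2 (chr9:108560299-108560358, plus strand) held 1. Their log2 fold changes were -0.78 (SE 0.04), -0.41 (SE 0.02) and -0.84 (SE 0.05), in that order. Ldha, the lactate dehydrogenase of glycolysis, stood at a mean log2 level of 14.38 in WT against 13.97 in cKO.

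Of 9 tested genes that MYC is known to repress, 5 rose and 2 fell, where 19.5% and 17.8% of all tested genes did, and the median log2 fold change was 0.36. Cdkn1b, the CDK inhibitor p27, stood at 6.48 in both WT libraries and at 7.47 and 7.27 in cKO, a 1.86-fold rise (log2 fold change 0.89, SE 0.15, limma adjusted p = 3.1e-05). Fth1, the ferritin heavy chain gene, rose 1.28-fold and Cdkn1a, the CDK inhibitor p21, 1.24-fold, and Gadd45a and Ndrg1 made up the 5. Cdkn1a did not pass under quantile normalization (limma adjusted p = 0.49). The stress genes Ddit3 and Gadd45b fell, with log2 fold changes of -0.40 and -0.87. With the library sums set equal 3 rose and 2 fell, with no filter on low values also 3 and 2, and with 1 prior variance shared by all levels only Cdkn1b rose and Gadd45b fell. Leaving out any 1 library gave 4 rises and 2 falls.

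**Figure D4:**
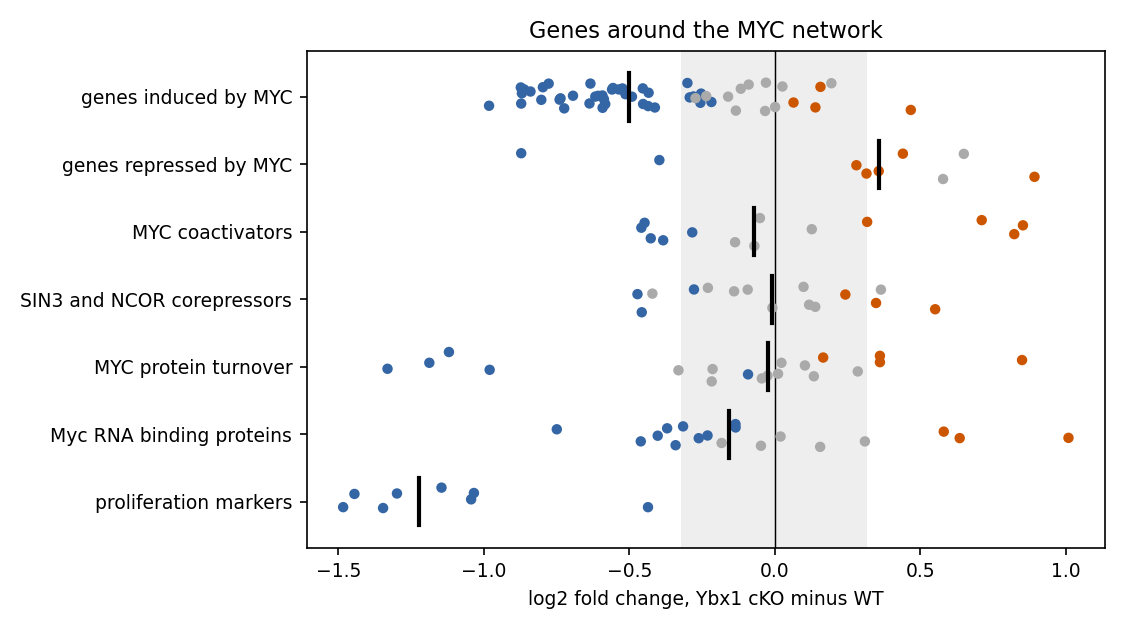
Log2 fold changes, Ybx1 cKO minus WT, of the genes of 7 lists around the network, with orange points for genes that rose, blue for genes that fell and grey for genes that did not pass; the vertical position within a list is spread at random. Thick bars are list medians, and the grey band spans the middle 50% of all tested genes, from -0.32 to 0.31. The medians lie at -0.50 for induced, 0.36 for repressed and -1.22 for proliferation genes.

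Markers of proliferation and of cell types moved with genotype beside these results, where 19.5% of all tested genes rose and 17.8% fell. All 8 proliferation genes fell (median log2 fold change -1.22), and their summed level per 1000000 was 1695 and 1697 in WT against 707.2 and 713.0 in cKO. The ribonucleotide reductase gene Rrm2 and the topoisomerase gene Top2a fell 2.72-fold and 2.80-fold, and Ccnb1 and Mcm3 2.46-fold and 2.21-fold. All 4 tested mature neutrophil genes rose, from a summed level of 349.3 and 373.8 to 1119 and 1125. The log2 fold changes were 2.75 for Mmp8 and 1.67 for Mmp9, against 0.24 for Lcn2 and 0.34 for Cxcr2. With the library sums set equal 2 of the 4 passed, Mmp8 and Mmp9. The other 8 of that list are not analysed here. Of 8 tested monocyte and macrophage genes 5 rose and 2 fell. Their sums were 6736 and 6843 in WT against 10641 and 10675 in cKO. These sums rest mainly on Lyz2 and Adgre1. Lyz2 went from a mean log2 level of 13.61 in WT to 15.86 in cKO, and Adgre1, the highest of the list, from 15.82 to 15.91. Of 4 erythroid genes 3 fell and 0 rose, with sums of 188.6 to 197.5 in WT against 132.0 to 141.2 in cKO. The 2 tested T and NK cell genes fell, with sums of 135.9 and 137.1 in WT against 59.7 and 63.7 in cKO, and the 1 tested B cell gene rose, though not with the library sums set equal. Of 6 genes of megakaryocytes and platelets, 2 were higher and 2 lower, with sums of 482.6 and 504.2 in WT against 676.2 and 693.6 in cKO. The part of these shifts in the changes of the network genes was not tested.

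The machinery that MYC recruits to chromatin changed in both directions. Of 13 coactivator genes 4 rose and 5 fell, where 19.5% and 17.8% of all tested genes did. The counts were 4 and 6 with the library sums set equal, and 3 and 2 with 1 prior variance shared by all levels. Trrap, the scaffold of acetyltransferase complexes that binds MYC, stood at 9.92 and 9.96 in WT against 10.81 and 10.78 in cKO, a 1.81-fold rise (log2 fold change 0.85, SE 0.05, limma adjusted p = 7.1e-13). Cdk9, an elongation kinase, rose 1.77-fold, and Kat5, an acetyltransferase gene, was also among the rises. Ruvbl2, an ATPase of the same complexes, fell 1.36-fold, as did Ruvbl1, Kat2a, Ep400 and Wdr5 by log2 fold changes from -0.46 to -0.28. Zbtb17, which encodes MIZ1, the partner through which MYC represses genes, had a log2 fold change of -0.07 (limma adjusted p = 0.65).

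Genes of the SIN3 and NCOR corepressors, on which the MXD and MNT proteins depend, also went both ways. Of 15 tested 3 rose and 3 fell, and the median log2 fold change was -0.01 (2 rose and 5 fell with the library sums set equal, and 0 and 1 with 1 prior variance shared by all levels). Both shares were near the 19.5% and 17.8% of all tested genes. The scaffold gene Sin3a and the histone-binding subunits Rbbp7 and Rbbp4 fell, with log2 fold changes of -0.47, -0.46 (SE 0.03) and -0.28 (SE 0.05). Arid4a and Arid4b, subunits of the SIN3 complex, rose by 0.55 (SE 0.08) and 0.35 (SE 0.05), and Ncor1 by 0.24. The catalytic subunit genes Hdac1 and Hdac2 had log2 fold changes of -0.09 and -0.23 and did not pass.

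Of 12 genes of the Polycomb complex that holds MGA, 1 rose and 3 fell, where 19.5% and 17.8% of all tested genes did. The counts were 1 and 6 with the library sums set equal and 1 and 1 with no filter on low values. With 1 prior variance shared by all levels 0 rose and 1 fell. Tfdp1, the dimer partner of E2F6, stood at 9.83 and 9.92 in WT against 9.07 and 9.06 in cKO, a 1.75-fold fall. E2f6 itself fell by 0.46 on the log2 scale (SE 0.11) and Wdr5 by 0.28 (SE 0.07), and Yaf2, which binds the RING subunits, rose by 0.34 (SE 0.07). Calls for E2f6 and Wdr5 were lost with no filter on low values (limma adjusted p = 0.099 and 0.058), and for Wdr5 also without WT replicate 2 (limma adjusted p = 0.052).

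Regulators of MYC protein stability went both ways as well. Of 19 genes 4 rose and 5 fell, where 19.5% and 17.8% of all tested genes did, and the median log2 fold change was -0.02. The counts were 2 and 7 with the library sums set equal and 2 and 4 with no filter on low values. With 1 prior variance shared by all levels 1 rose and 3 fell. The kinase genes Aurka and Plk1, which also drive mitosis, fell 2.28-fold and 2.17-fold. Cip2a, an inhibitor of the phosphatase PP2A, and Skp2, a ubiquitin ligase subunit, fell 2.52-fold and 1.97-fold, and were named after their values were seen. Gsk3b, the kinase that marks MYC for degradation, rose from 12.86 and 12.76 in WT to 13.68 and 13.64 in cKO (log2 fold change 0.85, SE 0.03, limma adjusted p = 2.5e-17). Fbxw7, the ligase that reads the mark, did not pass (log2 fold change 0.13, SE 0.09, limma adjusted p = 0.28).

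Among genes for proteins that bind Myc RNA, 10 of 18 fell and 3 rose, where 17.8% and 19.5% of all tested genes did, and the median log2 fold change was -0.16. Ptbp1, a splicing regulator that also binds the Myc ribosome entry site, fell 1.68-fold (log2 fold change -0.75, SE 0.05). Syncrip, a member of the coding-region stability complex of Myc, fell by 0.46 (SE 0.04) and the stabilising factor Elavl1 by 0.34 (SE 0.05). The count of falls was 12 with the library sums set equal, 7 without Ybx1 cKO replicate 2 and 6 with no filter on low values; with 1 prior variance shared by all levels 2 fell, Syncrip and Ptbp1, and 1 rose, Zfp36. Pcbp2 rose by 0.58 (SE 0.08), Zfp36, which promotes decay of AU-rich transcripts, by 0.64, and Hnrnpd by 1.01. Igf2bp2 and Igf2bp3, readers of methylated Myc RNA, did not pass (limma adjusted p = 0.14 and 0.80), and Igf2bp1 was too low to be tested.

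Of 10 tested relatives with the same DNA-binding fold 1 rose and 3 fell, near the 19.5% and 17.8% of all tested genes. None of the 10 passed with 1 prior variance shared by all levels, Tfap4 included (limma adjusted p = 0.051). Mlxip, which encodes MondoA, the partner of MLX, rose by 0.41 (SE 0.12, limma adjusted p = 6.9e-03). That call was lost without WT replicate 2 (limma adjusted p = 0.063) and with the library sums set equal (limma adjusted p = 0.056), where 0 rose and 3 fell. Tfap4, a MYC target that itself binds E-boxes, fell 2.01-fold, from 6.05 and 6.20 in WT to 4.93 and 5.31 in cKO. The sterol regulators Srebf2 and Srebf1 fell by 0.30 (SE 0.06) and 0.28 (SE 0.08), and Srebf1 lost its call without WT replicate 2 (limma adjusted p = 0.16). Of the targets of MondoA and MLX, Txnip, an inhibitor of glucose uptake, rose by 0.31 (SE 0.07) and Arrdc3 fell by 0.42 (SE 0.13), the latter not without WT replicate 2 (limma adjusted p = 0.16).

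Around Myc on chromosome 15, Pvt1, the long noncoding RNA gene that begins 47.6 kb beyond it, fell 1.39-fold, from 7.93 and 7.97 in WT to 7.59 and 7.38 in cKO (log2 fold change -0.47, SE 0.12, limma adjusted p = 2.1e-03). Asap1, 2096.5 kb away, fell by 0.35 (SE 0.08), whereas Trib1, 2328.3 kb away on the other side, rose by 0.95 (SE 0.19). Of 8 tested genes listed as neighbours of Myc 1 rose and 2 fell, where 19.5% and 17.8% of all tested genes did. The calls of Pvt1 and Asap1 were lost with 1 prior variance shared by all levels.

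Among 8960 tested genes with a mean of at least 5 per 1000000, the profile over the 4 libraries closest to that of Myc was that of Hnrnpa1, a splicing and RNA transport factor. The measure was the Euclidean distance between log2 levels centred on each gene's mean, 0.027 for Hnrnpa1. Nup107, a nuclear pore subunit, Pecam1, an adhesion molecule, Rfc5, a clamp loader subunit of DNA replication, and A630089N07Rik followed, at 0.035 to 0.037. Their log2 fold changes ran from -0.87 to -0.83. With 4 libraries in 2 groups such closeness says little more than a like fold change and a small gap between replicates.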

How the data were processed

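Members and gene lists were chosen with earlier results of these data known. The authors deposited 1 score per gene and library on a log scale of unstated base, for 28141 symbols. The build GRCm38 and the tools DESeq2, featureCounts, HISAT2 2.1.0 and CASAVA are named, without roles, per the submitters' processing notes. The scores were multiplied by 0.693, because the noise between replicates was then 1.10 (WT) and 1.31 (cKO) times Poisson noise, against 4.83 and 5.90 for plain log2. That assumes that back-transformed levels behave as reads. Under the same assumption, the slope of noise on level gave 1.62 (WT) and 1.60 (cKO) score units per doubling, beside 1.44 for the factor 0.693. Fold changes on the log2 scale would then be somewhat smaller. Genes reaching a score of 1 in 2 or more libraries entered limma 3.58.1 in R 4.3.3 (eBayes with trend, two-sided, Benjamini-Hochberg). This fit was tested on simulated data. It recovered 38.8% of genes changed 1.25-fold, 48% at 1.5-fold, 71.4% at 2-fold and 91.7% at 4-fold. Of its calls 4.7% were false. A gene that did not pass may thus still have changed. Exon lengths and positions are from GENCODE M21, promoters from RefSeq. Named genes were the network genes, up to 4 called genes with the smallest p-values per pathway list, and the 5 profiles nearest to Myc; other genes were named after their values were seen. Some single genes that the rule names are left out of the text. Alternatives covered filters, scaling, prior variance, threshold, left-out libraries, replicate block and log base. Python 3.11.15, pandas 2.3.3 and numpy 2.4.6 were used.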

Additional observations from a re-analysis of the deposited data

How the results depend on the processing

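Setting the library sums equal was an alternative added after seeing the data. With 1 prior variance shared by all levels, 2267 of 15527 tested genes passed instead of 5803, with 2080 in both sets, and 2 network genes instead of 5. Leaving out 1 library gave 4 to 5 network genes, 4662 to 5803 genes in all and 37 to 38 falling genes of the induced list, beside 39. Under library sums set equal, 2132 genes were higher and 4047 lower, against 3035 and 2768. Signs turned for Max without WT replicate 1 (-0.0082; leave-one-out range to 0.11) and with library sums set equal (-0.076). For Mnt they turned under quantile normalization (0.041) and without WT replicate 2 (0.15, the leave-one-out range starting at -0.19) or Ybx1 cKO replicate 2 (0.068). Ccnd2 turned under quantile normalization (-0.23) and library sums set equal (-0.060), and Pkm under quantile normalization (-0.23). Same-numbered libraries did not deviate together (correlation 0.013 across genes), and with the replicate block 5 network genes and 6026 genes in all passed. Without counts, the precision that depth allows is unknown, and Mxd4 and Mnt, the lowest network genes, had the largest SEs.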
